A study of Mus musculus with 39 samples.

Results

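Cytosolic ribosomal protein genes were examined in nuclear RNA and in open chromatin of nuclei isolated by flow sorting or by magnetic beads. Members were the genes of the deposited RNA tables whose symbols begin with Rpl or Rps and a digit, together with Rplp0, Rplp1, Rplp2 and Rpsa. Kinase genes (Rps6k) and entries marked as pseudogenes in their symbol were left out. This rule gave 88 of 24421 genes in the tables, 53 of the large subunit (Rpl and Rplp) and 35 of the small subunit (Rps and Rpsa). The rule used the symbols only, and 5 of the 88 are not canonical ribosomal proteins. Rps19bp1 encodes a binding partner of Rps19, Rpl7l1 encodes a nucleolar relative of Rpl7, Rps4l is a transcribed copy of Rps4x, and Rpl37rt and Rps27rt are copies made by retrotransposition.

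All libraries came from mice of 13 to 16 weeks, male and female, heterozygous for Arc-creERT2 (TG/WT) that also carried R26 CAG-Sun1-sfGFP-Myc, either M/WT or M/M. The Arc promoter drove the tamoxifen-dependent Cre, so that a green fluorescent nuclear membrane protein marked cells in which this neuronal activity gene was on around the time of the injection. Tamoxifen was given 5 h before a social interaction test and the neocortex was taken on day 3. Green nuclei were collected either by fluorescence-activated nuclei sorting (FANS, a flow sorter) or by INTACT (antibody-coated magnetic beads that bind the tagged nuclei), and both techniques were applied to mice of this cross after the same treatment. Which groups held M/WT and which M/M reporter mice is not given in the sources used here. RNA libraries were made in 3 batches, each from its own biological source: batch 1, with higher RNA integrity, had 4 FANS and 4 INTACT libraries, batch 2 had 7 and 4, and batch 3 had 7 and 5. Batch, source and RNA integrity cannot be told apart. The 31 libraries held between 4205665 and 11028713 reads on genes. Open chromatin was measured by ATAC-seq in 3 technical replicates for each technique from 1 biological source. Replicates within a batch may likewise be technical, and p-values then measure only the spread between these libraries.

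Every ribosome holds 1 copy of nearly every ribosomal protein, so cells make these proteins in matched amounts from some of the most highly transcribed protein-coding genes. Their mRNAs are short, leave the nucleus quickly and are very abundant in the cytoplasm. Most begin with a run of pyrimidines, the terminal oligopyrimidine (TOP) tract, through which their translation responds to growth signals such as mTOR. Many of the genes also carry small nucleolar RNAs (snoRNAs) in their introns, which guide the modification of ribosomal RNA and stay in the nucleus. In a nuclear library, reads on these genes can thus come from transcripts not yet exported as well as from cytoplasmic RNA attached to the nuclei.

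The sequences around the transcription start are given for some genes of the results below, with and without the tract. Each is 30 bases of the gene's own strand in mm10, from 15 bases before the start of a curated RefSeq transcript into the beginning of its exon 1, which is 5′ untranslated sequence, with the start as the 16th base. Capitals mark a C followed by at least 4 bases that are C or T, beginning within 5 bases of the start. Rps18, Rpl12, Rps13, Rps21 and Rps2 are shown as genes with large differences between techniques in batch 1, Rpl13a as the member with the most snoRNA genes, Rplp2 as a stalk protein gene, Rpl41 as the gene with the highest level per kilobase in batch 1 INTACT libraries, and Rpl26 as a gene with no read in any library.
Rps18, chr17:33955651-33955680, minus strand: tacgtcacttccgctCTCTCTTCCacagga
Rpl12, chr2:32961697-32961726, plus strand: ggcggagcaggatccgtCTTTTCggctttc
Rps13, chr7:116334176-116334205, minus strand: gagagcaaacgtcggtgagtggcgtcactt
Rps21, chr2:180257364-180257393, plus strand: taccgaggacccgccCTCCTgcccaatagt
Rps2, chr17:24720048-24720077, plus strand: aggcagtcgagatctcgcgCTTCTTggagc
Rpl13a, chr7:45128731-45128760, minus strand: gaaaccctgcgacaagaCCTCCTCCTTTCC
Rplp2, chr7:141447636-141447665, plus strand: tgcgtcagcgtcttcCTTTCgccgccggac
Rpl41, chr10:128549154-128549183, minus strand: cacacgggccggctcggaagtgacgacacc
Rpl26, chr11:68901551-68901580, plus strand: ctcgcggcaacttacagaaccggaagtcgc
The tract was present at the start of 6 of these 9 and was not found in these windows of Rps13, Rpl41 and Rpl26. Of the 67 members with an entry in the RefSeq start-site table, 30 (44.8%) had it by this search, against 21.7% of 17224 genes. A member without a match at an annotated start is not shown to lack the tract. The hexamer CCGGAA, the core to which ETS factors bind, was found on either strand in the 300-base window (250 bases before to 50 after the start) of 36 members (53.7%) and of 20.7% of all genes. The other letters searched were GGGCGG (61.2% of members and 49.6% of genes), CCAAT (31.3% and 42.0%), AAGATGGC, the YY1 core (8.96% and 3.63%), and TATAAA (10.4% and 14.2%). Rplp1, also described below, had no entry.

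Most members were read at moderate depth in nuclear RNA. In each library 82 to 84 of the 88 had at least 1 read. Members together took between 9.14 and 14.51 of every 10000 gene reads. A count filter (mean normalized count of at least 5 in the batch, where a normalized count is the reads of a gene divided by the library's size factor) was passed by 82 members in batch 1, 82 in batch 2 and 81 in batch 3. The other 6 members passed in none of the batches, among them Rpl26 and Rpl30, which encode standard proteins of the large subunit. Rpl26 was listed at 0 in all 31 libraries, as were Rps27rt and Rpl10l, the retrotransposed testis form of Rpl10. A count of 0 allows up to 3 reads, a limit that covers counting error only. Rpl30 had 15 reads in all and Rpl39l, a testis paralog of Rpl39, had 3. Rpl3l, the paralog of Rpl3 used in striated muscle, had 61 reads in 27 libraries. Rps27 had 225 reads over the 31 libraries and passed the filter in batches 1 and 2.

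These low values stand beside a property of the sequences. Only uniquely aligned reads were counted, reads were 70 bases long, and ribosomal protein genes have many processed copies elsewhere in the genome. For each member, the 70-base windows of its longest RefSeq transcript that also occur letter for letter outside the gene were counted. The median member had 57.7% of its windows copied, and 50 of the 88 had at least 50% copied. Rpl26 had 72.4% of its windows copied, Rpl30 had 72.6% and Rps27 had 100%. Members copied as much or more were also well read, among them Rpl12 (99.3% copied, 3962 reads in all), Rps12 (98.0%, 3549) and Rpl28 (100%, 1567). In 4 members no window was copied, and Rpl39l and Rpl3l, with few reads, were among these. What part reads lost to copies, if any, have in the level of any member or in its difference between techniques was not tested. Levels of members with many copies are thus uncertain. Across the 82 members tested in batch 1, the share of copied windows had a Spearman's rho of 0.33 with the level per kilobase and 0.29 with the log2 fold change (a description over genes that share the libraries). The 16 members with at most 25% copied windows had a median log2 fold change of 0.33 in batch 1, of which 9 were higher and 1 was lower at the adjusted threshold used below, where 18.6% of all genes were higher and 17.5% lower. Exons of 9 members overlapped an exon of another gene, 7 of them on the opposite strand, and the strand setting of the counting is not given in the sources used here.

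Per kilobase of annotated exon, levels within batch 1 INTACT libraries spanned a wide range. The highest were 457 normalized counts per kilobase for Rpl41, the shortest ribosomal protein, 363 for Rpl4 and 356 for Rpl12, both of the large subunit. The lowest of those tested were 9.71 for Rpl37rt, 16.3 for Rpl34 and 17.6 for Rps4l. Rpl37rt and Rps4l are copies, whereas Rpl34 encodes a standard protein of the large subunit. Rpl34 had 52.0% of its windows copied, below the 57.7% of the median member.

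In batch 1, ribosomal protein RNA was higher in INTACT nuclei. Of the 82 members tested, 22 (26.8%) were called higher in INTACT at an adjusted p under 0.05 and at least 1.5-fold, where 4.03% of all 15114 genes tested were called higher, and 1 (Rps4l) was called lower, where 3.94% of all genes were. Without the fold threshold, 52 members (63.4%) were higher against 18.6% of all genes, and 1 was lower against 17.5%. The median log2 fold change of the members (INTACT minus FANS, on log2 of the normalized count + 1) was 0.46, that is 1.38-fold, with quartiles of 0.32 and 0.60, and 78 members (95.1%) were above 0 against 50.9% of all genes, while the median of all genes was 0.01 with quartiles of −0.21 and 0.24. All 4 INTACT libraries lay above all 4 FANS libraries for 54 members (65.9%), against 17.1% of all genes, and below them for 1 (Rps4l), against 16.5%. The test was limma with an intensity trend and Benjamini-Hochberg adjustment over all genes. Leaving out any 1 library gave 17 to 23 members called higher. Without the 5 entries named above as not canonical, of which Rps27rt was not tested, 22 of 78 were called higher and none was called lower. At the adjusted threshold 51 of these were higher and none lower, with a median of 0.47. The 78 still hold paralogs such as Rpl22l1, Rpl36al and Rps27l.

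**Figure D1:**
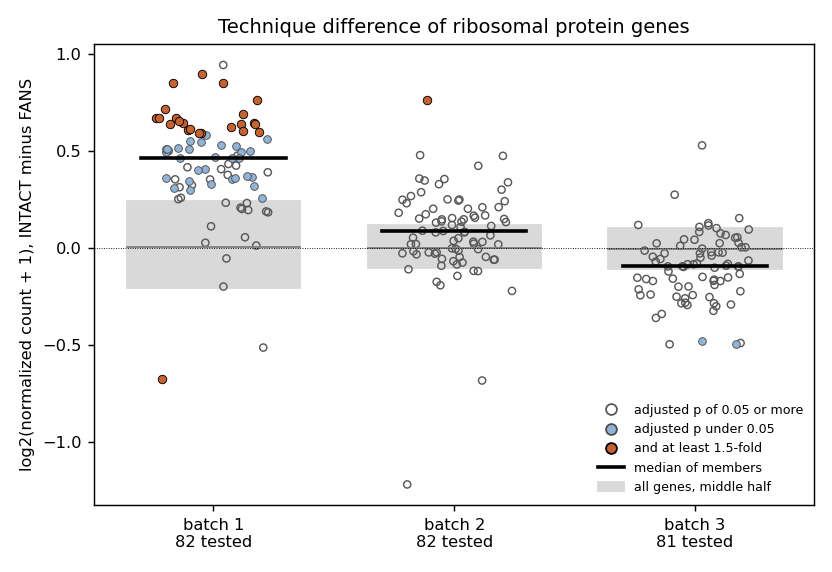
Log2 fold change (INTACT minus FANS, log2 of normalized count + 1) of each ribosomal protein gene tested in batches 1, 2 and 3, 1 point a gene, with the members' median as a black line and the range between the quartiles of all genes tested in the batch as a grey box. The members' median was 0.46 in batch 1, 0.09 in batch 2 and −0.09 in batch 3, and the median of all genes lay within 0.01 of 0 in each batch.

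The members with the largest called differences in batch 1 belonged to both subunits. Rps18, a protein of the head of the small subunit, had normalized counts of 42.44, 35.56, 39.52 and 33.62 in FANS replicates 1 to 4 and 66.61, 71.13, 75.05 and 71.39 in INTACT replicates 1 to 4. The lowest INTACT value was well above the highest FANS value, and the difference was 0.90 ± 0.16 (log2 fold change ± SE, adjusted p = 8.12e-05, limma). Rpl12, which sits at the base of the stalk of the large subunit, had 119.6, 139.8, 126.7 and 113.1 in FANS and 212.8, 275.4, 213.9 and 205.6 in INTACT. Its groups did not overlap either, with INTACT replicate 2 above the other INTACT libraries, and it differed by 0.85 ± 0.11 (adjusted p = 6.87e-07, limma). Rps13, of the small subunit, had 126, 95.64, 73.59 and 56.55 in FANS and 134.1, 162.9, 174.7 and 142.1 in INTACT. FANS replicate 1 came close to the lowest INTACT library, and the FANS values spread more than the INTACT values (0.85 ± 0.17, adjusted p = 0.000233, limma).

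Rps21, of the small subunit, had 75.88, 77.25, 84.49 and 64.19 in FANS and 128, 100.2, 128.2 and 132.9 in INTACT, a difference of 0.69 ± 0.13 (adjusted p = 0.00017, limma). INTACT replicate 2 was the lowest of its group and still above every FANS library, and the gene's exons overlap Mir3091 on the same strand. Rps2, which lines the mRNA entry channel, had 137.6, 160.6, 137.6 and 107 in FANS and 227.5, 198.9, 216.5 and 214.8 in INTACT, without overlap. The difference was 0.67 ± 0.11 (adjusted p = 2.57e-05, limma), and without FANS replicate 4 it was 0.56, below the 1.5-fold threshold. Rpl36, of the large subunit, had 47.59, 33.11, 40.88 and 25.98 in FANS and 50.18, 66.54, 60.44 and 55.53 in INTACT. FANS replicate 1 was just below the lowest INTACT library, and the difference of 0.67 ± 0.19 (adjusted p = 0.0076, limma) also fell under 1.5-fold, to 0.52, without FANS replicate 4.

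**Figure D2:**
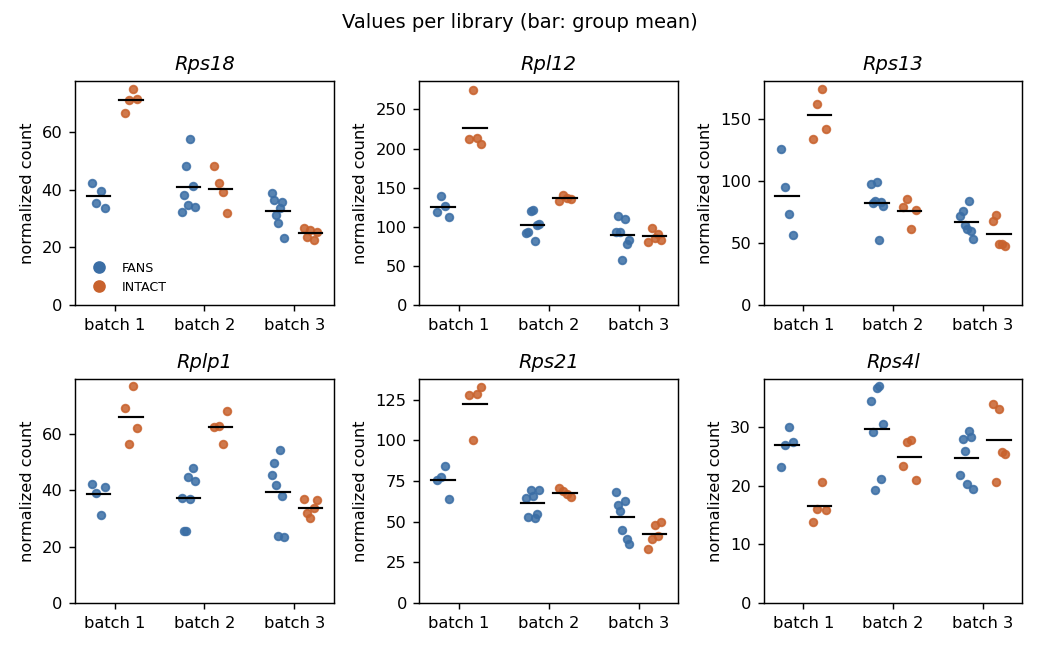
Normalized counts of Rps18, Rpl12, Rps13, Rplp1, Rps21 and Rps4l in every FANS and INTACT library of batches 1, 2 and 3, 1 point a library, with a bar at the group mean. In batch 1 the INTACT points of the first 5 genes lie above all FANS points and those of Rps4l lie below them, while in batch 3 the points of both techniques overlap.

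The stalk of the large subunit recruits elongation factors to the ribosome and is built from Rplp0 with pairs of Rplp1 and Rplp2. Rplp1 had 42.44, 39.24, 31.34 and 41.26 in FANS and 69.21, 56.6, 77.04 and 62.14 in INTACT of batch 1. All INTACT values were higher, with a difference of 0.77 ± 0.17 (adjusted p = 0.000906, limma). Rplp0 differed by 0.61 (adjusted p = 0.0048) and Rplp2 by 0.51 (adjusted p = 0.014), which is under 1.5-fold. Rpsa, a small subunit protein also known as a laminin receptor, differed by 0.61 (adjusted p = 0.000999). The calls of Rplp0 and Rpsa lay at the edge of the fold threshold. Rplp0 fell to 0.49 without FANS replicate 1, 0.52 without FANS replicate 3 and 0.55 without INTACT replicate 4, and Rpsa fell to 0.53 without FANS replicate 3, 0.57 without INTACT replicate 1 and 0.55 without INTACT replicate 2, each with an adjusted p still under 0.05.

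Rps4l was the only member called lower in INTACT in batch 1. It had 23.15, 26.98, 29.98 and 27.51 normalized counts in FANS and 13.84, 16.06, 20.59 and 15.86 in INTACT. The groups did not overlap, and the difference was −0.67 ± 0.24 (adjusted p = 0.0325, limma). The gene lies inside Tmtc1 on the opposite strand, and the estimate for Tmtc1 itself was 0.01 (adjusted p = 0.845). The call was lost without FANS replicate 3 (adjusted p = 0.073) or 4 (0.0532) and without INTACT replicate 1 (0.086), 2 (0.0666) or 4 (0.0728).

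Paralogs that can replace a standard protein were compared with their parents by their own tests, without a test of the difference between the genes. Rpl22l1, a paralog of Rpl22, differed by 0.50 (adjusted p = 0.0019) and Rpl22 by −0.20 (adjusted p = 0.16). Rpl36al was called higher by 0.59 (adjusted p = 0.043) and its parent Rpl36a had 0.48 (adjusted p = 0.064). The call of Rpl36al was lost when any 1 of FANS replicates 2 to 4 or INTACT replicates 2 to 4 was left out, with adjusted p up to 0.158. Rps27l, a p53 target, had 0.38 (adjusted p = 0.19) and Rps27 had 0.35 (adjusted p = 0.457). Rpl7 and Rpl7l1 had 0.37 and 0.36, Rps4x had 0.40 (adjusted p = 0.012) and Rpl39 had 0.43 (adjusted p = 0.147). The highest estimate of any member in batch 1 was that of Rpl34, 0.94 ± 0.40, which did not pass (adjusted p = 0.0697, limma). Its counts were 6.43, 8.58, 4.09 and 3.06 in FANS and 9.52, 7.65, 15.28 and 12.56 in INTACT, so that the groups overlapped, and without FANS replicate 2 its adjusted p was 0.0354.

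In batch 2, the members as a group differed little between techniques. Rplp1 alone was called higher (1 of 82, where 0.0941% of all 14876 genes were called), and no member was called lower, where 0.0336% of genes were. The same counts held without the fold threshold, where 0.834% of all genes were higher and 0.309% lower. At an unadjusted p under 0.05 there were 8 members (9.76%), fewer than the 15.2% of all genes. edgeR and DESeq2 on whole reads likewise called none lower. The median log2 fold change was 0.09, against −0.00 for all genes, and 54 members (65.9%) were above 0, against 49.8% of all genes. Without INTACT replicate 1 the members' median was 0.05. Rplp1 had 37.29, 25.48, 25.68, 44.71, 37.05, 47.85 and 43.27 in FANS and 62.62, 62.98, 56.6 and 68.19 in INTACT. Every INTACT value was above every FANS value, by 0.76 ± 0.18 on the log2 scale (adjusted p = 0.0267, limma). The call was lost without FANS replicate 6 (adjusted p = 0.0501) and without INTACT replicate 1 (0.101), 2 (0.0687), 3 (0.0516) or 4 (0.0832). The INTACT libraries all lay above FANS for 3 of 82 members (3.66%), Rplp1 and Rpl12 among them, against 1.59% of all genes. Rpl12 had 92.24, 93.74, 119.8, 121.9, 82.33, 102.4 and 104.3 in FANS and 133.3, 140.8, 136.9 and 135.3 in INTACT. Its INTACT values lay close together and above all FANS values (0.42 ± 0.11, adjusted p = 0.051, limma). Rpl37rt had the lowest estimate, with 9.81, 10.01, 8.56, 7.11, 8.23, 7.66 and 10.18 in FANS and 2.68, 1.15, 4.12 and 6.60 in INTACT. Rpl37rt was the 1 member (1.22%) whose INTACT values all lay below FANS, against 1.4% of all genes, but the difference of −1.22 ± 0.36 did not pass (adjusted p = 0.0885, limma).

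In batch 3, no member was called in either direction by limma, where 0.0139% of all 14440 genes were called higher and 0.346% lower. edgeR and DESeq2 also called 0 members, and 8 members (9.88%) had an unadjusted p under 0.05, fewer than the 13.7% of all genes. The median log2 fold change of the members was −0.09, and 22 (27.2%) were above 0, against 48.9% of all genes. The median was −0.05 without FANS replicate 2 and −0.14 without FANS replicate 7. At the adjusted threshold alone, 2 of 81 (2.47%) were lower, against 0.519% of all genes, and none was higher, against 1.18%. These were Rpl7 and Rpl37, both of the large subunit. Rpl7 lay between 98.16 and 161.2 in the 7 FANS libraries and between 78.01 and 102.3 in the 5 INTACT libraries, with an overlap of the ranges (−0.49 ± 0.11, adjusted p = 0.0165, limma). Rpl37 spanned 67.2 to 95.87 in FANS libraries and 47.69 to 58.67 in those of INTACT, without overlap (−0.48 ± 0.12, adjusted p = 0.03, limma). It was the 1 member whose INTACT values all lay below FANS (1.23%, against 0.589% of all genes), and for none did they all lie above, against 0.997%. Neither kept its adjusted p under 0.05 without every library. Rpl7 had 0.0538 without INTACT replicate 1 and 0.0595 without INTACT replicate 4. Rpl37 had 0.0541, 0.0748, 0.0613 and 0.0558 without FANS replicates 1, 2, 3 and 5, and 0.0868, 0.051 and 0.124 without INTACT replicates 3, 4 and 5. Rplp1, called in batches 1 and 2, had −0.16 in batch 3 (adjusted p = 0.78). The highest estimate was that of Rpl35 (0.53 ± 0.25, adjusted p = 0.341) and the lowest that of Rps26 (−0.49 ± 0.17, adjusted p = 0.149). Rps14, of the small subunit, lay between 25.82 and 58.91 in FANS and between 23.68 and 43.19 in INTACT, with overlap (−0.49 ± 0.19, adjusted p = 0.225). Over only the libraries whose replicate number occurs in both techniques, it was called lower (−0.69, adjusted p = 0.0209).

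Whether the technique effect differed between batches was tested by interaction contrasts in 1 limma fit of all 31 libraries. Of the 81 members tested in all 3 batches, 42 (51.9%) had a larger effect in batch 1 than in batch 3, against 11.2% of 14332 genes, and 1, Rps4l, had a smaller one, against 12.1%. Between batches 1 and 2, 6 members (7.41%) had a larger effect in batch 1, against 1.87% of genes, and none had a smaller one, against 4.43%. No member, and no gene at all, differed between batches 2 and 3 (0%). Among the differences that passed, the largest was that of Rps18, 1.26 ± 0.24 between batches 1 and 3 (adjusted p = 9.9e-05) and 0.90 between batches 1 and 2 (adjusted p = 0.016). Rps13 followed with 1.09 ± 0.24 and 0.96 (adjusted p = 0.0104 for the second). Rps2, Rpl10 and Rpl10a were also among the members whose effect was larger in batch 1 than in batch 2. Rplp1 had a difference of 0.92 ± 0.28 between batches 1 and 3 (adjusted p = 0.0119) and of 0.00 between batches 1 and 2. By sign alone, 43 of the 81 were above 0 in batches 1 and 2 and below 0 in batch 3, 9 were above 0 in all 3, and none was below 0 in all 3. The batches were scaled separately, which cancels in these contrasts.

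The share of gene reads on all 88 members gave the same order without scaling by size factors. Per 10000 gene reads, the members took 9.87 to 10.96 in FANS and 13.52 to 14.51 in INTACT of batch 1, without overlap. In batch 2 the shares were 9.81 to 11.62 and 11.29 to 11.81, and in batch 3 they were 9.14 to 13.35 and 9.15 to 10.71, with overlap in both. The INTACT mean minus the FANS mean was 3.73, 0.60 and −0.98 in the 3 batches, and in batch 3 it was −0.59 without FANS replicate 2. Without the 3 members that held the most reads it was 3.43, 0.52 and −0.81. In such bulk libraries, fewer cells of a type and less RNA per cell cannot be told apart.

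**Figure D3:**
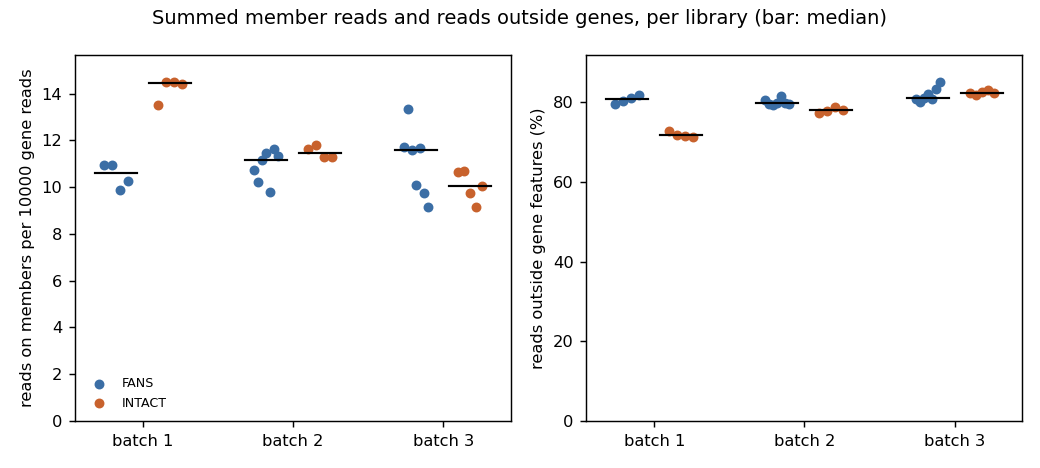
Reads on the 88 ribosomal protein genes per 10000 gene reads in each library, and percent of deposited reads outside genes in a second panel, by batch and technique, 1 point a library with a bar at the group median. INTACT libraries of batch 1 (13.52 to 14.51) lie above all FANS libraries of that batch (9.87 to 10.96), and the groups overlap in batches 2 and 3.

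Other measures moved with the techniques in batch 1, and their part in the result was not tested. Gene reads per library were 4853224 to 6066759 in FANS and 8621143 to 11028713 in INTACT. The share of deposited reads on no gene was 79.4% to 81.8% in FANS and 71.3% to 72.7% in INTACT. At an adjusted p under 0.05, 18.6% of all genes in batch 1 were higher and 17.5% lower. Summed markers of astrocytes took 9.85 to 11.2 per 10000 gene reads in FANS and 12.6 to 12.9 in INTACT, with 8 of 12 higher at that threshold. Those of oligodendrocytes took 8.93 to 11.5 and 15.0 to 15.7, with 9 of 12 higher. Vascular markers took 0.0659 to 0.0756 and 0.108 to 0.149, with 3 of 3 tested higher. Only 3 of the 10 vascular markers, and 6 of the 10 microglial markers, passed the count filter in batch 1. Inhibitory neuron markers took 0.303 to 0.433 and 0.5259 to 0.58, with 5 of 8 higher. Excitatory neuron markers took 14.4 to 14.9 and 14.3 to 14.7 (2 of 9 higher and 3 lower), and microglial markers took 0.385 to 0.515 and 0.413 to 0.474 (1 of 6 higher and 1 lower). No marker of these lists was at 0 in all libraries of a batch. In batch 2, oligodendrocyte markers took 11.8 to 23.9 in FANS and 22.9 to 28.0 in INTACT, with 5 of 12 higher, where 0.834% of all genes were. Of 11 astrocyte markers tested there, Slc1a3 and Apoe were higher, with a list median of 0.38, and the share of reads on no gene was 79.4% to 81.6% in FANS and 77.4% to 78.9% in INTACT, without overlap. In batch 3 no marker of any of the 6 lists passed in either direction.

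Related gene lists were set beside the members in batch 1, where 18.6% of all genes were higher and 17.5% lower at the adjusted threshold. Of 17 mRNAs that carry a TOP tract but encode no ribosomal protein, mostly translation factors, 5 were higher and 1 was lower, and their median was 0.06. Of 49 genes of ribosome biogenesis, which act in the nucleolus, 11 were higher and 2 lower, with a median of 0.03. Of 77 mitochondrial ribosomal protein genes, which are nuclear genes for a different ribosome, 24 were higher and 1 lower, with a median of 0.19. Of 23 abundant short cytoplasmic mRNAs, such as Tmsb10, Fth1 and Cox8a, 20 were higher and none lower, with a median of 0.51. In batch 2 these lists had medians of 0.02, 0.01, 0.01 and 0.11, and in batch 3 of −0.06, 0.00, −0.05 and −0.15. The list of abundant short mRNAs thus lay near the ribosomal protein genes in each batch, with Fth1 the only gene higher in batch 2 and Cox6c the only gene lower in batch 3.

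Differences among the members in batch 1 went with their length. The 27 shortest members (390 to 598 bases of exon) had a median of 0.51 with 11 called higher, the middle 27 had 0.49, and the 28 longest (943 to 5136 bases) had 0.34 with 5 called higher, where 4.03% of all genes and, among other protein-coding genes, 13.6% of those up to 500 bases and 11.4% of those between 500 and 1000 bases were called. Spearman's rho with length was −0.34 over the 82 members, and −0.25 over 13635 other protein-coding genes. Within classes of length the members lay above the other genes. Between 500 and 1000 bases, 46 members had a median of 0.50 and 67.4% were higher at the adjusted threshold, and 579 other protein-coding genes had 0.22 and 24%. Between 1000 and 2000 bases the medians were 0.34 for 18 members and 0.14 for 2541 other genes. Up to 500 bases they were 0.48 for 13 members and 0.35 for 66 other genes. In batches 2 and 3 rho with length was −0.18 and 0.15 over the members. The mean level of a member did not go with its difference (rho −0.03, −0.08 and −0.01 in the 3 batches), and the subunits had like medians in batch 1, 0.44 for the small and 0.46 for the large. Members with and without a match in the search for a TOP tract at an annotated start had medians of 0.46 (29 members) and 0.41 (33) in batch 1. The search does not show that the members without a match lack the tract. Those with and without CCGGAA had 0.42 each.

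Introns of 24 members held 34 snoRNA genes, 32 of them with values in the tables. Rpl13a held 4, Rpl23a held 3, and Rpl3, Rps3, Rps12 and Rps3a1 were among those that held 2. In batch 1 the hosts had a median of 0.51 with 19 of 24 higher at the adjusted threshold, and the other members had 0.41 with 33 of 58, against 18.6% of all genes. The difference between these groups of members was not tested. Among the hosts of several snoRNAs, Rpl13a differed by 0.58, Rpl23a by 0.61, Rpl3 by 0.55, Rps3 by 0.37 and Rps12 by 0.11 (adjusted p = 0.4656). Rpl23a was called, and without FANS replicate 4 its difference was 0.46. In batches 2 and 3 the medians of hosts and other members were 0.14 and 0.06, and −0.07 and −0.10.

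Most hosted snoRNAs had lower estimates than their hosts. Of 29 hosted snoRNAs tested in batch 1, 1 was higher in INTACT and 7 were lower at the adjusted threshold, with a median of −0.11. These were 3.45% and 24.1%, against 18.6% and 17.5% of all genes. The host's estimate was above that of its snoRNA in 26 of the 29 pairs. All 22 of these hosts were above 0, with a median of 0.51, so a gene at the all-gene median of 0.01 would also lie below them. Snora70, which lies in an intron of Rpl10, had mean normalized counts of 561 in FANS and 224.9 in INTACT (−1.27, adjusted p = 3.19e-08), and its host Rpl10 had 0.49. Snora64 in Rps2 had 282.5 and 169.8 (−0.72, adjusted p = 2.14e-05), opposite to the 0.67 of Rps2. Snora7a in Rpl32 had −0.62 and Snord15b in Rps3 had −0.51. Snora65 in Rpl12 was the snoRNA that was higher (0.59, adjusted p = 0.0119), beside 0.85 for its host. In batch 2 none of 29 passed in either direction and their median was −0.12. In batch 3 none was higher and 10 of 28 were lower (35.7%, against 0.519% of all genes), with a median of −0.68, among them Snora21 in Rpl23 (−1.35, adjusted p = 2.27e-06) and Snora3 in Rpl27a (−1.51, adjusted p = 0.000279). The difference between a host and its snoRNA was not itself tested.

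**Figure D4:**
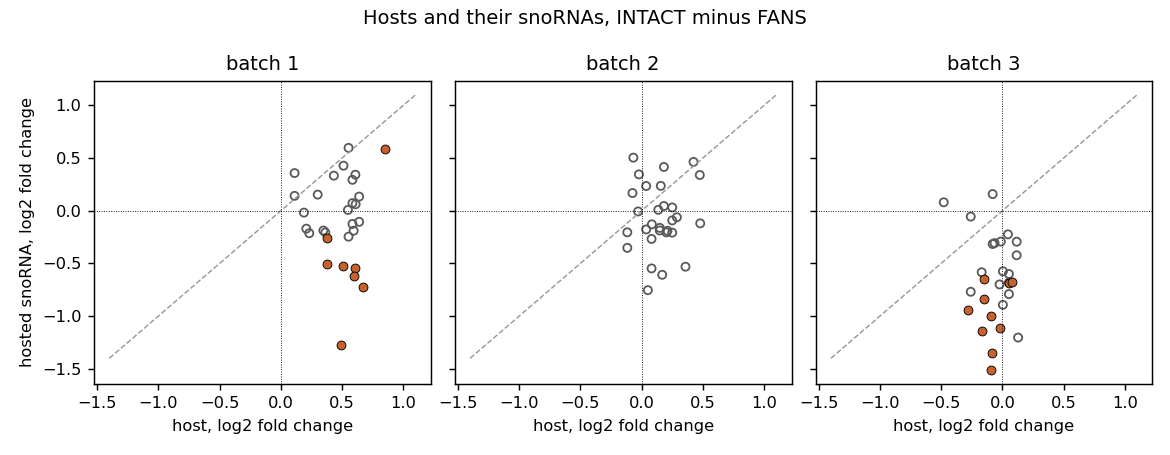
Log2 fold change (INTACT minus FANS) of each intronic snoRNA on the vertical axis against that of its host ribosomal protein gene on the horizontal axis, 1 point a pair, for batches 1, 2 and 3, with a dashed line of equal values and filled points where the snoRNA had an adjusted p under 0.05. In batch 1, 26 of 29 points lie below the line, in batch 2 21 of 29 and in batch 3 25 of 28. In batch 1 all 22 hosts were above 0.

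Open chromatin was present at nearly all starts of these genes. A peak overlapped an annotated start of 82 of the 88 members in all 6 ATAC libraries, where 50.9% of 24274 genes had one in all 6. Rpl10l, Rpl37rt, Rpl39l, Rpl3l and Rps27rt had none in any library, and Rps4l had low peaks in 5 of the 6, with fold enrichments over the local background of 3.68 to 4.23. Rpl26 and Rpl30, which had almost no reads, had peaks in every library. Rpl26 had fold enrichments of 19.34, 17.75 and 18.14 in FANS and 9.11, 8.30 and 12.25 in INTACT, and Rpl30 had 20.66, 20.48 and 18.92 in FANS and 18.2, 17.65 and 20.52 in INTACT. The INTACT peaks of Rpl26 were all lower than its FANS peaks and lower than the median of other genes in those libraries (12, 11.28 and 13.36), whereas those of Rpl30 overlapped. The tallest was that of Rpl27, with a median of 23.95 over the libraries, and the lowest median among members with 6 peaks was 5.44, for Rpl18. The summit lay within 150 bases of a start for 72 of the 82.

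Start-site peaks of the members were lower in INTACT libraries, as were those of other genes. The median height over the members was 16.26, 16.92 and 16.93 in FANS and 13.51, 12.75 and 14.86 in INTACT. For other genes the medians lay between 14.53 and 14.64 in FANS and between 11.28 and 13.36 in INTACT. All 3 INTACT heights were below all 3 FANS heights for 56 of the 82 members (68.3%), against 55.9% of 12352 genes, and for none the INTACT heights were all higher, against 1.11%. With 3 against 3 libraries an exact permutation test cannot go below p = 0.1, and these were technical replicates. The median ratio of INTACT to FANS height was 0.832 for members and 0.855 for other genes. Rpl4 had a ratio of 0.454, with 11.41, 12.59 and 9.49 in FANS and 5.09, 3.76 and 6.34 in INTACT. Rplp1 had 18.84, 18.88 and 18.07 in FANS and 14.37, 14.08 and 16.56 in INTACT, without overlap. Rps18, whose RNA was higher in INTACT of batch 1, had 9.42, 10.88 and 10.36 in FANS and 9.23, 8.46 and 11.19 in INTACT, which overlapped. Over the members, peak height had a rho of −0.24 with the RNA level per kilobase (81 members) and of −0.05 with the log2 fold change in batch 1 (80 members), a description across genes that share the libraries.

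**Figure D5:**
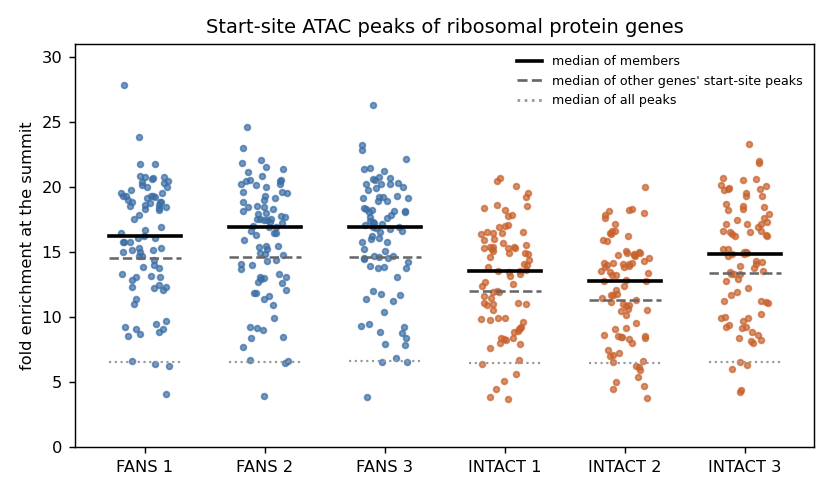
Height of the start-site peak (fold enrichment over the local background of the library) of the ribosomal protein genes in the 3 FANS and 3 INTACT ATAC libraries, 1 point a gene with the median, with dashed lines at the median of other genes and dotted lines at that of all peaks. The members' medians lie between 16.26 and 16.93 in FANS and between 12.75 and 14.86 in INTACT, above those of other genes in each library.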

How the data were processed

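Nuclear RNA was measured in 31 libraries and open chromatin in 6. The deposited RNA values are a signal, reads per gene divided by DESeq size factors within each batch. Per the authors, single-end reads of 70 cycles were aligned with STAR (mm10), duplicates were taken out by molecular identifiers, and unique alignments were counted with HTSeq. Whole reads were recovered from the steps of these values (tolerance 0.05 normalized counts, 100% whole) and used for shares and for the edgeR and DESeq2 alternatives. The deposited MACS2 peak lists, called by the authors in each library, hold a score (10 times the −log10 q-value), a fold enrichment over the local background (a ratio) and −log10 p-values and q-values. Peak heights here are the fold enrichment, and calling parameters are not given in the sources used here. Labels list 33 RNA libraries, and 2 of these (batch 2, replicate 3 of FANS and 5 of INTACT) were not used here.

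Each batch was fitted with limma 3.58.1 (R 4.3.3) on log2(normalized count + 1) over all genes with a mean of at least 5, with a trend and Benjamini-Hochberg adjustment. Calls needed an adjusted p under 0.05 and 1.5-fold. The added pseudocount understates the change of low genes. Differences between batches were contrasts in 1 fit of 6 groups. edgeR 4.0.16 and DESeq2 1.42.0 were alternatives. The fit was also run on simulated counts with known changes, and no result given here rests on that run. Counts differed by more than sampling noise in every pair of replicates, so none was treated as 1 library deposited again, which does not show that replicates are biologically separate. Exons, starts and snoRNAs came from RefSeq for GRCm38.p6 (mm10), and sequences from its start-site table, in which 67 members matched.

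Members and lists were chosen with earlier results of these data known. Genes named with values were, by rule, up to 8 called members per batch and direction, the stalk genes and Rpsa, paralogs with parents, the extremes of fold change and of level per kilobase, the hosts of most snoRNAs, up to 6 members whose effect differed between batches, and members lacking a peak. Rpl37, Rpl10a, Rpl26, Rpl30, Rpl27, Rpl18 and the snoRNAs were named after their values were seen. A few genes of these lists are counted but not reported here by name.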

Additional observations from a re-analysis of the deposited data

Results flagged for a closer look

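Some values lay apart from the other libraries of their group, by the gap to the nearest library against the whole range (Dixon's 95% critical value). Of 208 groups of values examined, 10 did so, and chance gives about 1 in 20. In batch 1, FANS replicate 4 was low for Rpl23a (45.85 normalized counts against 68.14 to 72.03) and for Rpl36a (24.45 against 44.14 to 47.59). INTACT replicate 2 of that batch was high for Rpl12 (275.4 against 205.6 to 213.9) and low for Rps21 (100.2 against 128 to 132.9). INTACT replicate 1 was low for Rpl23a (90.84 against 97.83 to 98.3) and for the summed share of the ribosomal protein genes (13.52 per 10000 gene reads against 14.42 to 14.51), and INTACT replicate 4 was high for Rpl4 (587 against 487.1 to 503.4). In batch 2, FANS replicate 5 was high for Rpl10 (202.2 against 165.7 to 179.7) and FANS replicate 6 was low for Rps13 (52.49 against 79.75 to 99.58). In batch 3, INTACT replicate 2 was high for Rpl41 (103.8 against 69.21 to 79.04).

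The technique effect (INTACT minus FANS, log2) differed between batches for named genes by limma's interaction contrasts at an adjusted p under 0.05. It was larger in batch 1 than in batch 2 by 0.96 for Rps13, 0.90 for Rps18, 0.70 for Rps2 and 0.56 for Rpl10. It was larger in batch 1 than in batch 3 for small subunit genes by 1.26 for Rps18, 1.09 for Rps13, 1.02 for Rps14, 0.98 for Rps21, 0.81 for Rps26, 0.63 for Rpsa and 0.59 for Rps2. For large subunit genes it was larger by 0.92 for Rplp1, 0.88 for Rpl41, 0.86 for Rpl12, 0.86 for Rpl7, 0.70 for Rpl3, 0.69 for Rpl23a, 0.53 for Rpl13a, 0.49 for Rpl10 and 0.45 for Rpl4. Rps4l was the exception, with a difference of −0.83.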

How the results depend on the processing

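The median log2 fold change in batch 1 lay between 0.41 and 0.47 without each library in turn, and members called higher between 17 and 23, with 16 under a pseudocount of 5 and 23 under edgeR. The 1 member called lower in batch 1 (Rps4l) became 0 under a pseudocount of 5, with no filter and under DESeq2, and between 0 and 1 without each library. The 1 at the adjusted threshold became 0 with no filter and under DESeq2, and between 0 and 1 without each library. In batch 2, members higher at the adjusted threshold were 2 under a pseudocount of 5, a mean of at least 20 or DESeq2 (Rplp1 and Rpl12), 0 with no filter, and 0 to 2 without each library. Members called higher in batch 2 (1, Rplp1) were 0 with no filter and 0 to 1 without each library. In batch 3, lower members at the adjusted threshold were 0 to 2 without each library. The cause of these moves was not tested, beyond fewer samples or more genes tested. The 14 calls of named genes by batch were kept in 187 of 228 values under alternatives and lost in 41, with 0 turned in direction, and the 87 results not called gained a call in 17 of 1669 values (batch 1 over numbered libraries, the same as all libraries, left out). The depth limits genes near the filter, such as Rpl34 and Rps27.

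Replicate numbers did not pair the libraries, since deviations of equal numbers correlated between −0.0704 and 0.112 and not every library correlated best with its own number. With the replicate number as a block, batch 2 had 0 members called and 0 at the adjusted threshold, and batch 3 had 1 called lower (Rps14) and 5 at the adjusted threshold. Restricted to numbers in both techniques without a block, an alternative chosen after seeing the data, batch 3 had 1 called lower (Rps14) and 3 at the adjusted threshold.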
